A study of Homo sapiens with 16 samples.

Results

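The genes described here encode the subunits of the transcription factor NF-kB and the IkB proteins that hold it in check. They comprise RELA, RELB, REL, NFKB1 and NFKB2 as subunits and NFKBIA, NFKBIB, NFKBIE, NFKBIZ and BCL3 as IkB proteins. The members were taken by gene symbol from the count table of the series, and 10 of 10 were found among its 59428 genes. All 10 had enough counts to be tested in each comparison. The series holds 16 RNA libraries of 2 ovarian carcinoma cell lines, each given olaparib, an inhibitor of the DNA repair enzyme PARP, or the solvent DMSO for 96 h. OVCAR3 carries intact BRCA1 and UWB1.289 a deleterious BRCA1 mutation, and BRCA1 acts in homologous recombination. The groups were OVCAR3 with DMSO, OVCAR3 with 7.5 µM olaparib, UWB1.289 with DMSO and UWB1.289 with 3.5 µM olaparib, with 4 replicates in each. Each dose was the IC50 of that line, and the culture media differed too, so that effects of cell line, of BRCA1, of dose and of medium cannot be told apart. Each BRCA1 state was represented by 1 cell line, without stroma or immune cells.

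NF-kB is a family of dimeric transcription factors that IkB proteins keep inactive in the cytoplasm. In the canonical pathway, receptors for tumor necrosis factor, interleukin 1 or bacterial products activate the IKK kinases, IkB is phosphorylated and degraded, and dimers with RELA or REL enter the nucleus. In the non-canonical pathway, the kinase NIK, encoded by MAP3K14, drives processing of the NFKB2 precursor, which frees dimers with RELB. Several of the genes that encode this machinery, among them NFKBIA, NFKB2 and RELB, are themselves known targets of NF-kB. NFKBIZ and BCL3 encode nuclear IkB proteins, which bind NF-kB subunits on DNA and can also activate transcription.

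Because the family is known for regulating its own genes, the start regions of the members were searched for the κB consensus, the sequence bound by NF-kB dimers. RefSeq windows of 300 bases (build GRCh38.p14, from 250 bases before a transcript start) were at hand for 8 of the 10 members, with 14 windows in all. RELB and NFKBIE had no window in that table. Both strands were read, and overlapping matches were counted separately. A match was found in 9 of the 14 windows (64.29%), against 2075 of 35116 (5.91%) of all promoter windows of that length. At least 2 matches lay in 4 of the 14 windows (28.57%), against 0.74% of all windows. A match describes the letters only and does not show that the factor binds there. The windows of RELA, which had starts at 2 positions, held no match. Another window each of NFKB1, NFKB2 and NFKBIB also held no match.

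Among members whose RNA was higher with olaparib in the sections that follow, BCL3 had its match after the start and RELA (higher in OVCAR3) had none. The stretches below hold κB matches before a start of other members that were higher. They read 5′ to 3′ on the strand of the gene, and capitals mark the letters that match the consensus on either strand. The stretches of NFKBIA (chr14:35404750-35404999, minus strand) and NFKB2 (chr10:102395455-102395704, plus strand) are the 250 bases before a start, and those of NFKB1 (chr4:102501295-102501334), NFKBIB (chr19:38899927-38899966), NFKBIZ (chr3:101827752-101827791) and REL (chr2:60881518-60881547), all on the plus strand, surround the match.
NFKBIA: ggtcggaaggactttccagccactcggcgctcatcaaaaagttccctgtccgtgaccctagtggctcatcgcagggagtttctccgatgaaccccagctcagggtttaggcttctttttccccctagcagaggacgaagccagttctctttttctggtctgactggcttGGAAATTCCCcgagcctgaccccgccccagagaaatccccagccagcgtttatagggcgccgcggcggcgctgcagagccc
NFKB2: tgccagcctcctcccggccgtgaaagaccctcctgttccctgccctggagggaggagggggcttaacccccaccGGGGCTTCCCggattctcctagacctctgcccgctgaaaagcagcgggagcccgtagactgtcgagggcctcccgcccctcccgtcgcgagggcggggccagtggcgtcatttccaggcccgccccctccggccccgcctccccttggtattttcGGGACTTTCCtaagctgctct
NFKB1: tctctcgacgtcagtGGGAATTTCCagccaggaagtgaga
NFKBIB: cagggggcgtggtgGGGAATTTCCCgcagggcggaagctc
NFKBIZ: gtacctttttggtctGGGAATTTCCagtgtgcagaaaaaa
REL: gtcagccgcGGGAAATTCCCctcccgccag
The match of NFKBIA began 81 bases before the start and that of NFKB1 49 bases before it. NFKB2 had matches beginning 176 and 21 bases before this start, and its window at another start held 3 more, beginning 107, 106 and 78 bases before that start. NFKBIB and REL each had an overlapping pair, on opposite strands. NFKBIZ had a match beginning 223 bases before its first start and another, GGGGTTTCCC, before a second start. The match of BCL3, GGGAAGTCCC on the opposite strand, lay 2 to 11 bases downstream of the start.

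Total counts per library ranged from 5599571 to 7730228, with a median of 6413979.5, and no library stood apart in depth. QuantSeq libraries read the 3′ end of transcripts, so values below are CPM (counts scaled to the library size with TMM factors over the 16 libraries) and were not divided by length. Levels are therefore compared for the same gene between groups, apart from sums, shares and ratios of counts over several genes, which are descriptions. Of 8 ovarian carcinoma markers all were detected in OVCAR3, with a summed level of 4075 to 4329 CPM with DMSO and 2592 to 2840 CPM with olaparib. In UWB1.289, where WT1 was at 0 counts with DMSO, the sums were 7395 to 8007 CPM and 5809 to 7146 CPM. Of 6 leukocyte markers, 4 had at most 3 counts in every library of OVCAR3 and 2 in every library of UWB1.289. CD3E, which defines T cells, was at 0 in both UWB1.289 groups. Other leukocyte markers were detected in UWB1.289. PTPRC had 32 to 48 counts per library there with DMSO and 25 to 69 with olaparib. CD14 had 16 to 31 counts with DMSO and 35 to 57 with olaparib. The 6 leukocyte markers summed to 2.10 to 2.90 CPM with DMSO and 1.99 to 4.04 CPM with olaparib in OVCAR3. In UWB1.289 they summed to 8.45 to 12.1 CPM and 16.7 to 22.3 CPM. The 6 fibroblast and endothelial markers summed to 23.4 to 31.0 CPM with DMSO and 33.0 to 39.8 CPM with olaparib in OVCAR3. In UWB1.289 they summed to 6.34 to 8.34 CPM and 9.50 to 11.2 CPM. COL3A1 was at 0 throughout. COL1A1 had 121 to 210 counts per library with DMSO and 222 to 268 with olaparib in OVCAR3, and 23 to 30 and 20 to 36 in UWB1.289. PECAM1 had 0 and 1 to 8 counts in OVCAR3, and 16 to 25 and 25 to 36 in UWB1.289. The marker sums moved with the treatment, and their part in the results below was not tested.

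All 10 members rose with olaparib in OVCAR3, against 15.5% of the 13031 tested genes that rose and 16% that fell at an adjusted p below 0.1 in edgeR's quasi-likelihood test with Benjamini-Hochberg adjustment. Genes under that limit are said below to have passed. The median log2 fold change of the members was 0.96, against -0.012 over all tested genes. In UWB1.289, 8 of 10 rose, against 7.77% of 12748 genes that rose and 6.1% that fell, with a median of 0.62 against -0.00436. The 8 were all members other than RELA and NFKB1, and with the replicate number as a block all 10 passed. Without UWB1.289 olaparib replicate 4, 4 of the 10 passed. More than 2-fold increases at an average normalized count above 10 were found for 5 members in OVCAR3 (2.9% of all tested genes) and for 2 in UWB1.289 (1.93%), where RELB fell just short without UWB1.289 DMSO replicate 3 (log2 fold change 0.99). Libraries of the groups did not overlap, all olaparib values lying above all DMSO values, for 8 members in OVCAR3 (12.4% of all tested genes) and for 5 in UWB1.289 (7.73%). In bulk RNA, a change in the cells that make up a culture and a change in RNA per cell cannot be told apart.

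**Figure D1:**
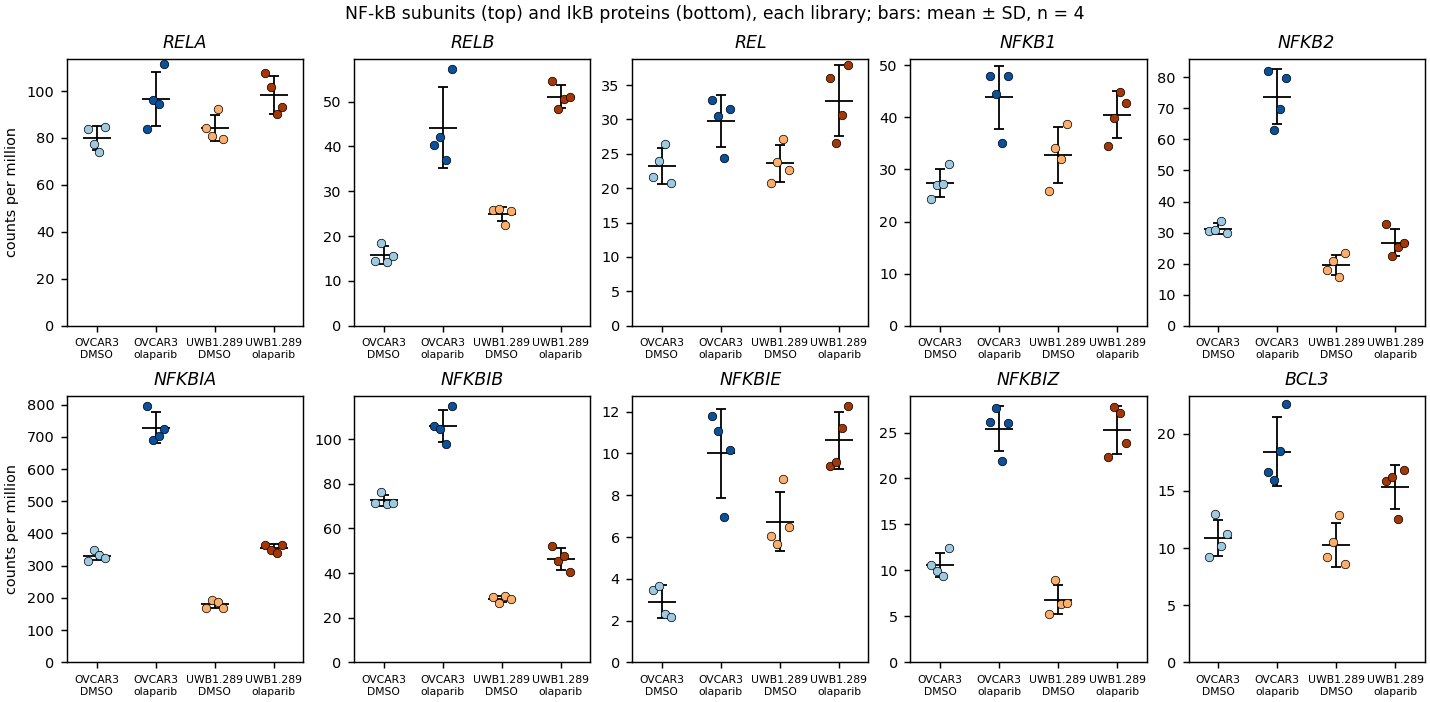
CPM of each member in each of the 16 libraries, by line and treatment, with the 5 subunits above and the 5 IkB proteins below. Points are libraries, and bars give the mean ± SD (n = 4). RELB, NFKBIA, NFKBIB, NFKBIE and NFKBIZ had no overlap between DMSO and olaparib in either line, whereas the points of RELA and REL overlapped in OVCAR3.

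Among the subunits with a transactivation domain, RELB changed most with olaparib. RELB (chr19:45001461-45038192, GENCODE release 44 on hg38) encodes the partner of the processed NFKB2 product. With DMSO it stood at 14.5, 18.6, 14.2 and 15.6 CPM in OVCAR3 replicates 1 to 4, and with olaparib at 40.4, 42.0, 36.9 and 57.3 CPM. Every olaparib library was thus above every DMSO library, replicate 4 being the highest. The fold change was 2.82 (log2 1.496, SE 0.144, edgeR adjusted p = 2.08e-07). In UWB1.289 RELB stood at 25.8, 26.0, 22.5 and 25.5 CPM with DMSO and at 54.5, 48.4, 50.5 and 51.0 CPM with olaparib. Here too the groups did not overlap, and the fold change was 2.05 (log2 1.04, SE 0.104, edgeR adjusted p = 2.41e-07).

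RELA and REL, the subunits of the canonical pathway, moved less. RELA, which encodes the most widely used transactivating subunit, stood at 74.0 to 84.5 CPM with DMSO and at 83.8, 96.0, 94.5 and 112 CPM with olaparib in OVCAR3. The lowest olaparib library lay within the DMSO range, and the log2 fold change was 0.28 (SE 0.0919, edgeR adjusted p = 0.0336). In UWB1.289 its mean was 84.3 ± 5.64 CPM with DMSO and 98.1 ± 8.09 CPM with olaparib (SD, n = 4), and the difference of 0.22 on the log2 scale did not pass (edgeR adjusted p = 0.135, or 0.0863 with the replicate number as a block). REL, a subunit best known from lymphocytes, had means of 23.2 ± 2.56 and 29.8 ± 3.75 CPM in OVCAR3 (SD, n = 4), and rose by 0.36 in log2 units (SE 0.127, edgeR adjusted p = 0.0439). In UWB1.289 its means were 23.6 ± 2.66 and 32.8 ± 5.16 CPM (SD, n = 4), with a log2 fold change of 0.48 (edgeR adjusted p = 0.0217). These small increases depended on single libraries. RELA in OVCAR3 no longer passed without DMSO replicate 3 (adjusted p = 0.117), nor did REL without DMSO replicate 1 (0.110), DMSO replicate 4 (0.133) or olaparib replicate 1 (0.125), and REL in UWB1.289 no longer passed without olaparib replicate 4 (0.101).

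Of the precursor subunits, NFKB2 passed in both lines and NFKB1 in OVCAR3. NFKB2 (chr10:102394110-102402524) stood at 30.4, 30.8, 33.9 and 29.98 CPM with DMSO and at 81.9, 63.1, 69.9 and 79.9 CPM with olaparib in OVCAR3. The groups lay far apart, with a fold change of 2.36 (log2 1.24, SE 0.104, edgeR adjusted p = 3.08e-08). In UWB1.289 the values were 18.1, 20.7, 15.8 and 23.5 CPM with DMSO and 32.7, 22.4, 25.4 and 26.7 CPM with olaparib. Olaparib replicate 2 lay below the highest DMSO library, and the log2 fold change was 0.45 (SE 0.143, edgeR adjusted p = 0.0482). NFKB2 did not pass there without DMSO replicate 1 (adjusted p = 0.122), DMSO replicate 3 (0.139), olaparib replicate 1 (0.140) or olaparib replicate 4 (0.102).

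NFKB1, the precursor of the usual partner of RELA, stood at 24.3, 27.0, 27.2 and 31.0 CPM with DMSO and at 47.9, 44.5, 35.2 and 48.0 CPM with olaparib in OVCAR3. These groups did not overlap, and the log2 fold change was 0.68 (SE 0.120, edgeR adjusted p = 2.84e-04). In UWB1.289 it ranged from 25.8 to 38.7 CPM with DMSO and from 34.5 to 44.9 CPM with olaparib, with overlap. The log2 difference of 0.31 (SE 0.125) did not pass (edgeR adjusted p = 0.131). It passed with the replicate block (0.0458) and without DMSO replicate 4 (0.0776) or olaparib replicate 1 (0.0572).

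All 3 cytoplasmic inhibitors rose in both lines. NFKBIA (chr14:35401079-35404749) encodes IkB-alpha, the inhibitor that is degraded and made again in each round of activation. It stood at 315, 348, 332 and 324 CPM with DMSO and at 796, 689, 704 and 726 CPM with olaparib in OVCAR3. In UWB1.289 the values were 169, 194, 188 and 170 CPM with DMSO and 365, 348, 339 and 363 CPM with olaparib. Neither line had overlapping groups, and the fold changes were 2.21 in OVCAR3 (log2 1.15, SE 0.0703, edgeR adjusted p = 4.64e-10) and 1.97 in UWB1.289 (log2 0.98, SE 0.0774, edgeR adjusted p = 4.74e-09).

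NFKBIB encodes IkB-beta, an inhibitor that holds dimers for longer. It stood at 71.4, 76.3, 71.0 and 71.3 CPM with DMSO and at 106, 105, 97.8 and 115 CPM with olaparib in OVCAR3 (log2 0.55, SE 0.0803, edgeR adjusted p = 3.88e-05). In UWB1.289 it went from 29.1, 26.7, 29.8 and 28.5 CPM to 52.2, 45.2, 47.5 and 40.5 CPM (log2 0.70, SE 0.108, edgeR adjusted p = 1.24e-04). The highest UWB1.289 library with olaparib stayed below the lowest OVCAR3 library with DMSO. The gene shares 163 bases at its 5′ end with SIRT2 on the other strand, away from the 3′ end that these libraries read.

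NFKBIE, which encodes IkB-epsilon, had the fewest counts of the members in OVCAR3 with DMSO, 15 to 21 per library. Its values there were 3.47, 3.68, 2.32 and 2.15 CPM, and 11.8, 11.1, 6.98 and 10.1 CPM with olaparib. The groups did not overlap, and the fold change of 3.47 was the largest of the members in this line (log2 1.80, SE 0.247, edgeR adjusted p = 1.90e-05). In UWB1.289 the values were 6.03, 5.67, 8.78 and 6.47 CPM with DMSO and 9.41, 9.61, 11.2 and 12.3 CPM with olaparib. DMSO replicate 3 came near the lowest olaparib library, and the log2 fold change was 0.66 (SE 0.194, edgeR adjusted p = 0.0335). It did not pass without DMSO replicate 2 (adjusted p = 0.102) or olaparib replicate 4 (0.120).

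Of the nuclear IkB proteins, NFKBIZ changed more than BCL3. NFKBIZ (chr3:101827991-101861022) encodes a coactivator of secondary response genes. In OVCAR3 it stood at 10.6, 9.98, 9.41 and 12.5 CPM with DMSO and at 26.1, 27.6, 21.9 and 26.0 CPM with olaparib, 2.39-fold higher (log2 1.26, SE 0.141, edgeR adjusted p = 1.69e-06). In UWB1.289 it stood at 5.28, 9.01, 6.38 and 6.47 CPM with DMSO and at 22.3, 27.8, 27.1 and 23.9 CPM with olaparib. This increase of 3.74-fold was the largest of the members in this line (log2 1.90, SE 0.165, edgeR adjusted p = 2.01e-08). With olaparib the lines thus reached overlapping levels from separate DMSO levels. The first 15753 bases of NFKBIZ lie within NXPE3 on the same strand, which had 651 counts over all libraries against 1756 for NFKBIZ, and the 3′ end of NFKBIZ is free of it.

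BCL3, a nuclear partner of the processed NFKB1 and NFKB2 products, had means of 10.9 ± 1.59 CPM with DMSO and 18.4 ± 3.00 CPM with olaparib in OVCAR3 (SD, n = 4). The groups did not overlap, and the log2 fold change was 0.77 (SE 0.160, edgeR adjusted p = 0.00138). In UWB1.289 the values were 9.19, 10.5, 12.9 and 8.58 CPM with DMSO and 15.9, 16.2, 12.5 and 16.9 CPM with olaparib. DMSO replicate 3 exceeded olaparib replicate 3, and the log2 fold change was 0.58 (SE 0.168, edgeR adjusted p = 0.0311). BCL3 did not pass there without DMSO replicate 4 (adjusted p = 0.107) or olaparib replicate 4 (0.102).

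**Figure D2:**
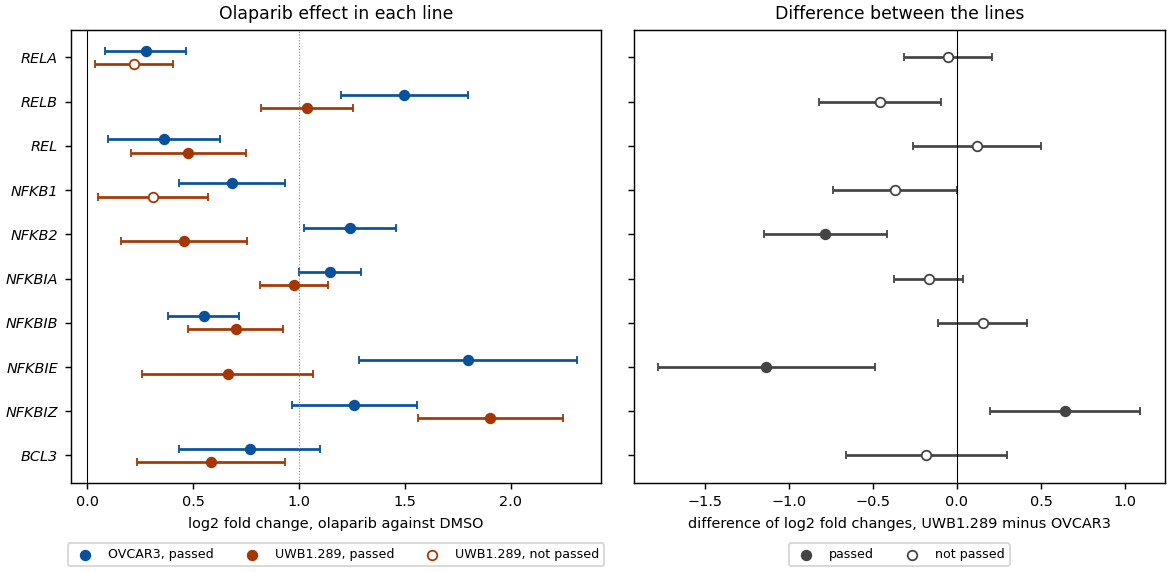
Left, log2 fold change of each member with olaparib against DMSO in OVCAR3 and UWB1.289. Right, the difference of these fold changes, UWB1.289 minus OVCAR3. Points are edgeR estimates, bars are 95% intervals, filled points passed at an adjusted p below 0.1, and the dotted line marks a 2-fold increase. The differences of NFKB2 (-0.78) and NFKBIE (-1.13) lay below 0 and that of NFKBIZ (0.64) above it.

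Whether the response differed between the lines was tested as an interaction over the 16 libraries. A larger response in UWB1.289 passed for 5.09% and a larger response in OVCAR3 for 5.83% of 14243 genes. Among the members, NFKB2 responded more in OVCAR3 by 0.78 on the log2 scale (difference -0.78, 95% interval -1.15 to -0.42, edgeR adjusted p = 0.00521). NFKBIE also responded more in OVCAR3 (difference -1.13, interval -1.78 to -0.49, edgeR adjusted p = 0.0229). NFKBIZ responded more in UWB1.289 (difference 0.64, interval 0.20 to 1.09, edgeR adjusted p = 0.0702). The call for NFKBIZ ended without any filter on low counts (adjusted p = 0.162) and without UWB1.289 DMSO replicates 1 (0.160), 3 (0.118) or 4 (0.122), UWB1.289 olaparib replicates 2 (0.122) or 3 (0.123), OVCAR3 DMSO replicate 4 (0.183) or OVCAR3 olaparib replicate 3 (0.128).

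For the other 7 members a difference was not shown. The difference was -0.46 for RELB (interval -0.82 to -0.09, edgeR adjusted p = 0.122). It passed with the replicate block (0.0902), without OVCAR3 DMSO replicate 2 (0.0723) and without OVCAR3 olaparib replicate 3 (0.0669). For NFKB1 it was -0.37 (interval -0.74 to -0.0026, edgeR adjusted p = 0.235). The differences of NFKBIA (-0.17, interval -0.37 to 0.037) and NFKBIB (0.15, interval -0.11 to 0.42) were bounded well inside 1 log2 unit. Those of RELA (-0.05, interval -0.32 to 0.21), REL (0.12, interval -0.26 to 0.50) and BCL3 (-0.18, interval -0.66 to 0.29) were also small against their intervals.

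Without drug, the lines already differed in most members. UWB1.289 was higher for 3 members and lower for 4, where 39.8% of 13366 genes were higher and 40.1% lower, so the share of members was near that of all genes. A difference of more than 2-fold was found for 2 members, NFKBIE and NFKBIB, against 38.4% of all tested genes. The inhibitors NFKBIA (log2 difference -0.88, SE 0.0704, edgeR adjusted p = 2.22e-12) and NFKBIB (-1.35, SE 0.0919, adjusted p = 4.91e-14) were lower in UWB1.289. NFKBIZ (-0.66, adjusted p = 0.00378) and NFKB2 (-0.68, adjusted p = 1.99e-05) were lower as well. NFKBIE (1.22, SE 0.267, edgeR adjusted p = 1.44e-04) and RELB (0.67, SE 0.132, adjusted p = 4.43e-05) were higher. NFKB1 was higher by 0.25 (edgeR adjusted p = 0.0644), a call that ended with DESeq2 (0.109) and without UWB1.289 DMSO replicate 2 (0.101) or 4 (0.242) or OVCAR3 DMSO replicate 1 (0.185), 2 (0.102) or 3 (0.115). RELA (0.07), REL (0.02) and BCL3 (-0.09) did not pass.

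The 4 groups were then placed in order of level for each member, and each step between neighbours was tested with a two-sided exact permutation test on log2 CPM. With 4 against 4 libraries the smallest p is 0.0286, and 11 steps reached it. Adjustment over the 30 steps gave each of these 0.0779, a value that depends on how many steps tie. The order was taken from the same libraries that were then tested. NFKBIB was separated at each step, from UWB1.289 with DMSO to UWB1.289 with olaparib, OVCAR3 with DMSO and OVCAR3 with olaparib. For NFKBIA the order was UWB1.289 with DMSO, OVCAR3 with DMSO, UWB1.289 with olaparib and OVCAR3 with olaparib, and the middle neighbours were not separated (exact adjusted p = 0.101). NFKBIZ stepped up from UWB1.289 with DMSO to OVCAR3 with DMSO and then to UWB1.289 with olaparib, whose level did not differ beyond its spread from OVCAR3 with olaparib (exact adjusted p = 0.943). RELB began with OVCAR3 with DMSO, followed by UWB1.289 with DMSO and OVCAR3 with olaparib, and the last step to UWB1.289 with olaparib was not separated (exact adjusted p = 0.214). NFKB2 was separated only between OVCAR3 with DMSO and OVCAR3 with olaparib, and NFKBIE only between OVCAR3 with DMSO and UWB1.289 with DMSO. RELA, REL, NFKB1 and BCL3 had no step between neighbours that was separated.

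The unequal changes altered the make-up of the family's RNA. RELB made up 8.86% ± 1.08 of the counts of the 5 subunit genes in OVCAR3 with DMSO and 15.2% ± 1.57 with olaparib (SD, n = 4). In UWB1.289 its share went from 13.5% ± 1.23 to 20.5% ± 0.308 (SD, n = 4). NFKB2 took 17.6% ± 1.18 and 25.6% ± 2.54 in OVCAR3, but 10.5% ± 1.69 and 10.7% ± 1.21 in UWB1.289. RELA had 45.0% ± 2.69 with DMSO and 33.6% ± 3.04 with olaparib in OVCAR3 without overlap of libraries, and it had 45.6% ± 3.35 and 39.4% ± 2.69 in UWB1.289, where the ranges of 41.9% to 48.6% and 37.0% to 42.6% overlapped. The shares of REL and NFKB1 overlapped between treatments in both lines.

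In sum, the 5 subunits reached 178 ± 3.09 CPM with DMSO and 288 ± 29.0 CPM with olaparib in OVCAR3, and 185 ± 7.13 and 249 ± 11.98 CPM in UWB1.289 (SD, n = 4). The 5 IkB genes reached 427 ± 17.3 and 888 ± 51.3 CPM in OVCAR3, and 233 ± 15.6 and 452 ± 11.9 CPM in UWB1.289. The lines were thus close in subunit RNA without drug and apart in IkB RNA. IkB counts per subunit count were 2.40 ± 0.0986 with DMSO and 3.10 ± 0.265 with olaparib in OVCAR3, with ranges of 2.32 to 2.54 and 2.74 to 3.34. In UWB1.289 they were 1.26 ± 0.0735 and 1.81 ± 0.0480, with ranges of 1.16 to 1.32 and 1.75 to 1.87. In neither line did the ranges overlap. NFKBIA supplied 77.3% to 82.0% of the IkB counts as group means, so the ratio follows that gene, and a ratio of RNA counts is no measure of protein.

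**Figure D3:**
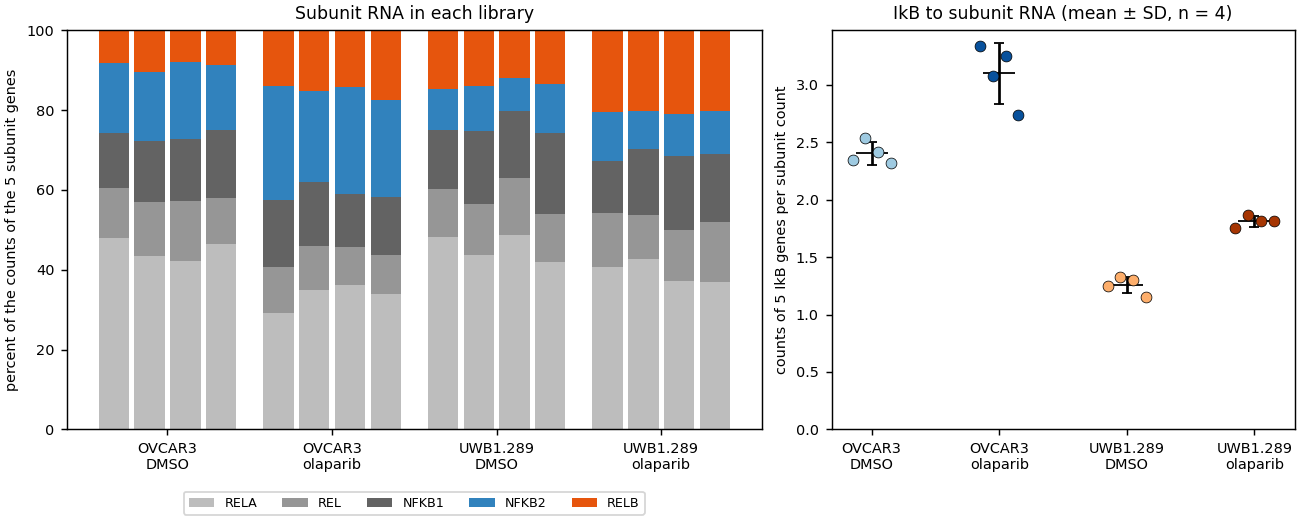
Left, percent of the counts of the 5 subunit genes taken by each, 1 bar per library. Right, counts of the 5 IkB genes per subunit count, with points for libraries and bars for the mean ± SD (n = 4). The RELB share was larger with olaparib in both lines, the NFKB2 share in OVCAR3, and the ratio was between 1.16 and 1.32 in UWB1.289 with DMSO against 2.74 to 3.34 in OVCAR3 with olaparib.

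The surrounding pathway was examined through 77 genes in 7 lists by role, of which 61 were tested in OVCAR3 and 63 in UWB1.289. In OVCAR3 32 rose and 3 fell, where 15.5% of all tested genes rose and 16% fell. In UWB1.289 34 rose and 2 fell, where 7.77% of all tested genes rose and 6.1% fell. The counts of each list stand against the same shares. The lists were chosen with earlier results of these data known, so the comparison with all genes is a description only. In addition, the filter on low counts kept genes that were very low with DMSO only where their olaparib counts were higher. The median log2 fold changes were 0.36 and 0.46. The genes not tested, among them the ligase gene RNF31 and the cytokine gene IL6, had too few counts.

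**Figure D4:**
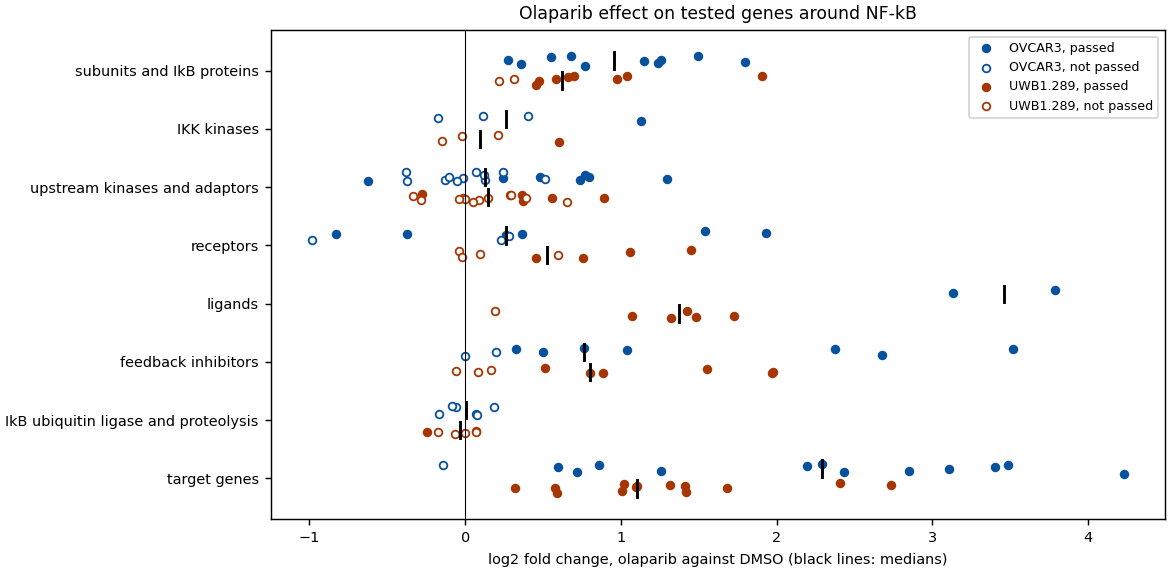
Log2 fold change with olaparib against DMSO (horizontal axis) of the members and of each tested gene of the 7 lists, in OVCAR3 and UWB1.289. Each point is a gene, filled points passed at an adjusted p below 0.1, and black lines mark list medians. In OVCAR3, single ligand (up to 3.79), feedback (up to 3.51) and target genes (up to 4.23) exceeded the largest value of the members (1.80), whereas the 6 genes of IkB ubiquitination and proteolysis lay close to 0 in both lines.

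Most genes of the IKK kinases, which phosphorylate IkB, did not pass. Of 5 genes, 4 were tested and only IKBKE, a kinase related to IKK that is itself a target of NF-kB, rose in OVCAR3 (log2 fold change 1.13, edgeR adjusted p = 1.67e-05) and in UWB1.289 (0.60, adjusted p = 0.0767). IKBKB, the main catalytic subunit, had values of 19.8 ± 2.50 and 17.5 ± 1.85 CPM in OVCAR3 (SD, n = 4), and its log2 difference of -0.18 did not pass. CHUK, the kinase of the non-canonical pathway, had a difference of 0.12 that did not pass. IKBKG, the regulatory subunit, had at most 2 counts in any library and was not tested.

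Of 19 upstream kinases and adaptors, 6 of 18 tested rose and 1 fell in OVCAR3, and 5 of 17 rose and 1 fell in UWB1.289. MAP3K14, which encodes NIK, passed 2-fold in OVCAR3 (log2 fold change 1.30, edgeR adjusted p = 3.63e-04), from 3.72 ± 1.05 to 9.26 ± 1.53 CPM (SD, n = 4). TRAF2 and TRAF3, adaptors that keep NIK low, rose in OVCAR3 by 0.77 and 0.79 on the log2 scale and in UWB1.289 by 0.56 and 0.37. TRAF6, an adaptor of interleukin 1 and Toll-like receptors, fell in OVCAR3 (log2 fold change -0.62, edgeR adjusted p = 0.0103). The adaptor MYD88 of the same receptors rose in UWB1.289 (0.89, edgeR adjusted p = 0.00111), and MAP3K7, the kinase TAK1, fell there (-0.28, adjusted p = 0.0833) while it rose in OVCAR3 (0.25, adjusted p = 0.0668). That difference passed as an interaction (-0.52, edgeR adjusted p = 0.0154).

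Among 12 receptors, 4 of 9 tested rose and 2 fell in OVCAR3, and 4 of 8 rose in UWB1.289. CD40, a receptor that feeds both pathways, rose in OVCAR3 (log2 fold change 1.54, edgeR adjusted p = 1.72e-05) and in UWB1.289 (1.06, adjusted p = 3.53e-05). TNFRSF1B, a receptor for tumor necrosis factor, rose in OVCAR3 (1.93, edgeR adjusted p = 2.43e-05), and the Toll-like receptor gene TLR2 rose in UWB1.289 (1.45, adjusted p = 0.00101). TNFRSF1A, the other receptor for that factor, fell in OVCAR3 by 0.38 on the log2 scale, as did TLR5 by 0.83.

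Ligands were low in OVCAR3, where 2 of 9 genes had enough counts for a test and both rose. TNF was so low with DMSO that it could be tested only through its olaparib libraries, so this count is a description only. TNF had 2 to 7 counts per library with DMSO and 48 to 67 with olaparib (log2 fold change 3.79, edgeR adjusted p = 4.37e-08). LTB, a ligand of the lymphotoxin beta receptor, rose from 2.46 ± 0.698 to 21.6 ± 1.80 CPM (SD, n = 4, edgeR adjusted p = 5.78e-10). In UWB1.289, 5 of 6 tested ligands rose, and all 5 were past 2-fold. They were TNF (1.73), LTB (1.32), IL1A (1.07), IL1B (1.42) and TNFSF13B (1.48, edgeR adjusted p = 0.0223), all as log2 fold changes. TNFSF13B had 4 to 15 counts per library with DMSO there and was tested through its olaparib libraries, so this count too is a description. The increases of TNF and LTB were larger in OVCAR3 (differences -2.06 and -1.81, edgeR adjusted p = 5.43e-04 and 3.67e-06). Their levels nevertheless stayed lower there, at 8.85 ± 1.31 against 22.4 ± 2.08 CPM for TNF and 21.6 ± 1.80 against 289 ± 31.9 CPM for LTB with olaparib (SD, n = 4).

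Feedback inhibitors outside the members, NFKBID included, rose in 7 of 9 cases in OVCAR3 and 6 of 9 in UWB1.289. TNFAIP3, which encodes the ubiquitin-editing enzyme A20, rose by 2.67 (edgeR adjusted p = 1.68e-10) and 1.97 (adjusted p = 6.34e-11) on the log2 scale. ZC3H12A, an RNase that degrades inflammatory transcripts, rose by 2.38 and 1.55, and BIRC3, a ubiquitin ligase that acts on NIK, by 3.51 (from at most 4 counts per library with DMSO) and 1.98. NFKBID, another nuclear IkB gene, rose by 1.04 and 0.89. By contrast, none of the 6 genes for the IkB ubiquitin ligase and its partners passed in OVCAR3 at an adjusted p below 0.1 by edgeR, and RBX1 alone passed in UWB1.289, where it fell (log2 fold change -0.25, edgeR adjusted p = 0.0978).

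Of the known NF-kB target genes, 17 in the list, 12 of 13 tested rose in OVCAR3 and 13 of 13 in UWB1.289. The medians were 2.29 and 1.11. Some of these genes were so low with DMSO that they were tested through their olaparib libraries and would otherwise have been left out. Among them, CCL20 had 2 to 8 counts per library with DMSO in OVCAR3, and CXCL2 had 0 to 10 in UWB1.289. The counts of genes that rose and the medians are thus a description only. The chemokine genes CXCL8 (log2 fold change 4.23, edgeR adjusted p = 4.64e-10), CXCL1 (3.48, adjusted p = 3.52e-11), CCL20 (3.40), CXCL2 (3.11) and CXCL3 (2.85) led in OVCAR3. IER3, a stress response gene, rose by 2.43, the iron-binding LCN2 by 2.29, the adhesion gene ICAM1 by 2.19 and TNFAIP2 by 1.26. In UWB1.289 CXCL3 (2.73), CXCL2 (2.41), CXCL1 (1.68), the transcription factor gene IRF1 (1.42), CCL2 (1.41), CXCL8 (1.32), TNFAIP2 (1.11), ICAM1 (1.09), SOD2 (1.02) and LCN2 (1.004) rose by more than 2-fold. CCL20 went there from at most 1 count per library to 5 to 41 counts, at least 7.62-fold higher when the floor of 3 counts per library is used. Of 14 target genes tested for a difference between lines, 5 responded more in OVCAR3, namely CXCL8 (difference -2.91), IER3 (-1.85), CXCL1 (-1.80), LCN2 (-1.28) and ICAM1 (-1.10), and 2 more in UWB1.289, namely IRF1 (0.70) and CFLAR (0.47).

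Over all 7 lists, 20 of 68 tested genes differed in response, 15 with the larger value in OVCAR3 and 5 in UWB1.289. Of all tested genes, 5.83% responded more in OVCAR3 and 5.09% more in UWB1.289, so the 5 of 68 (7.35%) were near the share of all genes. Among adaptors TRAF5 (-1.07) and TRAF6 (1.01) passed 2-fold, and among feedback inhibitors BIRC3 (-1.53). TLR2 passed as well, but it had 0 counts in every OVCAR3 library with DMSO, so no difference is given. Without drug, 32 of 59 tested genes were higher and 17 lower in UWB1.289, where 39.8% of all tested genes were higher and 40.1% lower. The difference was more than 2-fold for 19 of the higher and 8 of the lower genes. By the same rule 2498 of all 13366 tested genes were higher and 2629 lower, 38.4% in either direction. CXCL8 (log2 difference 4.81), LCN2 (4.30), ICAM1 (4.16), LTB (5.55), BIRC3 (5.995), TNF (3.39) and CD40 (2.41) were higher in UWB1.289. So were RBCK1 (1.95), GADD45B (1.87), CXCL1 (1.74), TRAF5 (1.603), IRAK1 (1.54), LTBR (1.41), TNFAIP3 (1.287), CFLAR (1.28) and TAB3 (1.15). In contrast, IL1R1 (-4.77), TLR5 (-1.94), TRAF6 (-1.76), TNFAIP2 (-1.64), IRF1 (-1.27), BTRC (-1.17), NFKBID (-1.12) and MAP3K14 (-1.11) were lower. TLR4, IL1A and IL1B had at most 2 counts per OVCAR3 library, and at a floor of 3 counts per library they were at least 27.3-fold, 24.8-fold and 7.35-fold higher in UWB1.289.

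The genes whose pattern was most like that of a member were sought over the 16 libraries among 14243 genes, by Pearson's r of log2 CPM after the mean of each line was removed. The libraries share treatment, so any pair of genes that respond to olaparib scores high, and r is given as a description only. RELB was closest to PI3 (0.977), ICAM1 (0.974) and SDC4 (0.968). NFKBIA was closest to PI3 (0.983), HLA-B (0.978) and ZC3H12A (0.973), and NFKBIB to SLPI (0.963), TNIP1 (0.960) and ZNFX1 (0.952). NFKB2 had PVR (0.965), LCN2 (0.962) and PPP2R5B (0.952) as its nearest genes, NFKBIE had AREG (0.957), TGFA (0.952) and IER3 (0.950), and NFKBIZ had GBP5 (0.976), KLF6 (0.971) and PLSCR1 (0.967).

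RELA was nearest to TNIP2 (0.912), BCAR1 (0.897) and EHD1 (0.874), and REL to RRP12 (0.912), FAM207A (0.904) and MT-TL1 (0.902). NFKB1 was nearest to PDP1 (0.927), TRIO (0.926) and JAK1 (0.917), and BCL3 to HSF1, SNORD83A and IKBKE, each at 0.925. Between members r ran from 0.527 for RELA and NFKB1 to 0.965 for RELB and NFKBIA over the 45 pairs.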

How the data were processed

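The authors prepared QuantSeq 3′ mRNA libraries of OVCAR3 and UWB1.289 cells, trimmed single-end reads with BBDuk, used STAR 2.7.9a (2 passes) for mapping to hg38, and obtained gene counts from featureCounts 2.0.0 on GENCODE (v38). The deposited values are raw, whole-number counts. How strand and multimapping reads were treated is not given in the sources used here, so reads of overlapping genes may be shared. Every column was used.

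Tests on counts used edgeR 4.0.16 under R 4.3.3 (TMM factors, filterByExpr, quasi-likelihood F test), with the 8 libraries of each comparison in the fit and all 16 for the difference between lines. P-values were adjusted by Benjamini-Hochberg over all tested genes. A gene passed at an adjusted p below 0.1, and the 2-fold rule added a change beyond 2-fold and an average normalized count above 10, limits the authors used with DESeq2. Plotted log2 CPM had a prior count of 2. Neighbouring groups were compared with two-sided exact permutation tests. The scripts were tested on simulated data.

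The treatment was repeated 4 times according to the series design. No label says whether these were separate cultures, so p-values measure the spread between these libraries, which may be technical. The closest of 24 pairs within groups still differed by a chi-square per gene of 3.03. Replicate numbers come from the sample labels. In UWB1.289, same-numbered libraries deviated together (r 0.133 to 0.224 over 9536 genes), and in OVCAR3 r was 0.0346 to 0.165, so the numbers may pair libraries. The main tests did not pair libraries by number, and blocked values stand beside the results they change.

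Members and lists were chosen with earlier results of these data known. All 10 members are named. Of each list the genes past the 2-fold rule are named, and from lists without any up to 2 with the smallest adjusted p, and of the genes most like a member the 3 with the highest r. CHUK, IKBKB, MAP3K7, TRAF3, TNFRSF1A, RNF31 and IL6 were chosen after their values were seen. Symbols were matched to GENCODE release 44 for coordinates and to RefSeq for promoters. Alternatives were DESeq2 1.42.0, its size factors within edgeR, all genes with a count, a limit of 0.05 on the adjusted p, the replicate block, all 16 libraries in each fit, a prior count of 0.5, other inhibitor sums and leaving out each library.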

Additional observations from a re-analysis of the deposited data

Results flagged for a closer look

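The olaparib effect on 3 members differed between the lines by the test of that difference. Of all 14243 tested genes, 5.09% responded more in UWB1.289 and 5.83% more in OVCAR3. In log2 units and as UWB1.289 minus OVCAR3, the difference was -0.78 for NFKB2 (edgeR adjusted p = 0.00521), -1.13 for NFKBIE (adjusted p = 0.0229) and 0.64 for NFKBIZ (adjusted p = 0.0702). As given above, the call for NFKBIZ was lost without a filter on low counts and without any of several single libraries.

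In 2 of the 64 groups of 4 libraries, 1 library lay far from the others, where chance gives about 1 in 20 groups. RELB in UWB1.289 DMSO replicate 3 was at 4.51 log2 CPM, and the other libraries of that group lay between 4.69 and 4.72. NFKBIB in OVCAR3 DMSO replicate 2 was at 6.26 log2 CPM, and the other libraries were all at 6.16.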

How the results depend on the processing

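Each choice was changed on its own, and 589 of 630 values for single members kept their direction and their side of the threshold. A call was lost in 29 and gained in 7 of the remainder. The direction turned in 5, all for differences that had not passed. They came from leaving out 1 library at a time. For UWB1.289 against OVCAR3 with DMSO, REL (0.02) then ran from -0.041 to 0.090, negative without UWB1.289 DMSO replicate 3 or OVCAR3 DMSO replicate 1 or 4, and BCL3 (-0.09) from -0.20 to 0.013, positive without UWB1.289 DMSO replicate 4. The difference of the RELA effect between lines (-0.05) ran from -0.12 to 0.023, positive without OVCAR3 olaparib replicate 4. The cause was not tested.

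Leaving out 1 library at a time, the members that passed in UWB1.289 numbered 4 to 8 (8 with all libraries), those past 2-fold 1 to 3 (2 with all), and those past 2-fold for the difference between lines 0 to 1 (1 with all). The count of 4 came without UWB1.289 olaparib replicate 4. The 2-fold counts were 1 and 0 without UWB1.289 DMSO replicate 3, where RELB (0.99) and the difference of NFKBIE (-0.99) fell just short of 1 on the log2 scale. With DESeq2, 10, 8, 6 and 3 members passed in OVCAR3, in UWB1.289, between lines with DMSO and for the difference between lines, against 10, 8, 7 and 3 with edgeR.

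With the replicate block these counts were 10, 10, 7 and 4, and it changed no call other than those of RELA and NFKB1 in UWB1.289 and RELB between the lines. In OVCAR3 same-numbered libraries correlated at 0.0346 to 0.165, against 0.133 to 0.224 in UWB1.289. In each line 3 of 4 matched their own number best, so a difference in pairing between the lines was not shown. Without NFKBIZ and BCL3, IkB counts per subunit count were 2.28 in OVCAR3 with DMSO and 1.16 and 1.65 in UWB1.289 with DMSO and olaparib, against 2.40, 1.26 and 1.81. Depth limits NFKBIE in OVCAR3 with DMSO, at 15 to 21 counts per library.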
